A study of Mus musculus with 71 samples.

Results

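The genes of acetylcholine signalling through muscarinic receptors were followed in RNA-seq libraries from 3 brain regions, the nucleus accumbens (NAc), ventral tegmental area (VTA) and prefrontal cortex (PFC), after self-administration of cocaine or saline by mice. The 9 genes were chosen by symbol: the 5 muscarinic receptors Chrm1, Chrm2, Chrm3, Chrm4 and Chrm5, and the cholinergic neuron genes Chat, Slc18a3, Slc5a7 and Ache. The family was taken up with earlier cocaine and region values of these same libraries in view, so the values below are a description. P-values of differences between groups in a gene are printed only as the output of a fit over all genes. Permutation p-values, for summed cell type genes and for correlations across libraries, come from chosen comparisons and are a description too. Of the 37681 genes in each of the 6 tables, 8 were members with a row in every table, and Slc18a3 was not analysed here. Wild type C57BL/6 mice of both sexes, 8 weeks old, first learned to respond for food pellets and were then given intravenous cocaine (0.7 mg/kg/infusion) or saline in 21 daily sessions, and tissue was punched out after 1 or 28 days of abstinence. This made 12 groups with 71 libraries, 6 per group apart from saline VTA at 28 days with 5. The sex of each mouse and whether a library came from 1 mouse are not given in the sources used here, so p-values measure the spread between libraries. The regions may come from the same mice, which the labels do not tie to libraries, and the comparison of regions treats the libraries as independent.

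Acetylcholine is made from choline by choline acetyltransferase (Chat), loaded into vesicles by the vesicular transporter Slc18a3, broken down by acetylcholinesterase (Ache), and its choline is taken back up by the high-affinity transporter Slc5a7. The receptors encoded by Chrm1, Chrm3 and Chrm5 signal through Gq/11 proteins to phospholipase C, and those encoded by Chrm2 and Chrm4 act through Gi/o proteins against adenylyl cyclase. In the NAc the transmitter comes largely from local interneurons, while the VTA receives it from the brainstem and the PFC from the basal forebrain, so that in those regions the cell bodies that make Chat RNA lie mostly outside the tissue. Chrm5 is known for its place on midbrain dopamine neurons, Chrm1 and Chrm4 for theirs on striatal projection neurons, and Chrm1 and Chrm3 also for theirs on cortical neurons.

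On the mouse genome mm9 all 8 members with a row are protein-coding genes. Chat lies at chr14:33221389-33279095 on the minus strand, Slc5a7 at chr17:54412919-54438359 on the minus strand, and Ache at chr5:137728747-137735694 on the plus strand. Chrm1 (chr19:8738495-8758077), Chrm2 (chr6:36338084-36478414) and Chrm4 (chr2:91762346-91769986) are on the plus strand. Chrm3 (chr13:9876381-9878329) and Chrm5 (chr2:112319229-112320974) are on the minus strand and were counted over a model of 1 exon each. Exons of Chrm1, Chrm2 and Chrm4 overlap a gene on the opposite strand by 329, 142 and 25 bases (7SK, 9330158H04Rik and Mdk). The strand used in counting is not given in the sources used here, so reads in those stretches are uncertain.

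The promoters of Chat and Slc5a7 are shown because the levels of these genes rose and fell together from one NAc library to the next. RefSeq sequence of the build GRCm38.p6 held an entry for 8 of the 9 genes, each of 300 bases from 250 before to 50 after the start, and both are printed on the minus strand of the genome (Chat chr14:32465860-32466159, Slc5a7 chr17:54298985-54299284). Capitals mark the cyclic AMP response element half-site TGACG or its reverse CGTCA, the E-box CACGTG, and the TATA box TATAAA or its reverse TTTATA.
Chat: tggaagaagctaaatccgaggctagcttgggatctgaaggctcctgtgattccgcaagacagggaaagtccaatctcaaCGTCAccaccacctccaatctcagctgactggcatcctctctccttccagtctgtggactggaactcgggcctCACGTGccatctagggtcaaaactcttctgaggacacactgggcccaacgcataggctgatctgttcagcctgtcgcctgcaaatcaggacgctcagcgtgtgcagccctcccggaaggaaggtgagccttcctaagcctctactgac
Slc5a7: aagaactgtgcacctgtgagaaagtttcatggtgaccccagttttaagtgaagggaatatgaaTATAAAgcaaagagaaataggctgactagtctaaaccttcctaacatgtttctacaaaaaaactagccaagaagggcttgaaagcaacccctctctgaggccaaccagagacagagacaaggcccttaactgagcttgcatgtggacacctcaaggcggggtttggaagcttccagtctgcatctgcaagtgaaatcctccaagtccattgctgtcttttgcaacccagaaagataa
The half-site was in Chat and Slc18a3 and in 20.8% of all 32851 promoters, the E-box in Chat and Ache and in 7.15%, and the TATA box in Slc5a7 and in 13.6%. The full element TGACGTCA (1.79% of promoters) and the Nr4a1 site AAAGGTCA or its reverse TGACCTTT (1.51%) were in none of the 8. The half-site is part of the full element, and a match says only that these letters stand in the window.

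Libraries held 20971967 to 49700932 reads in genes. Levels are given in RPKM, reads scaled by gene length and library size, so that genes can be compared. Those of Chrm3 and Chrm5 were counted over 1 exon each, and whether that model covers the whole transcript was not tested. The summed level of 9 medium spiny neuron genes was 1793 to 3968 RPKM in the NAc, that of 9 midbrain dopamine neuron genes was 633.9 to 2638 in the VTA, and that of 9 cortical excitatory neuron genes was 494.4 to 820.7 in the PFC. Of the dopamine neuron genes, En1, Foxa1, Lmx1b and Pitx3 stayed under 0.1 RPKM in every library of the NAc and PFC. The whole list summed to 23.0 to 36.7 RPKM in the NAc and 11.1 to 22.4 in the PFC, so other genes of it were present there. Saline library 4 of the PFC at 28 days stood apart. Its medium spiny neuron sum was 1416 RPKM against 100.4 to 135.9 in the other 5 saline libraries, and its cortical sum of 503.4 was the lowest of that table. Without it the PFC saline means at 28 days were 38.1 ± 2.31 RPKM for Chrm1, 2.45 ± 0.234 for Chrm2, 21.5 ± 3.13 for Chrm3 and 17.7 ± 0.943 for Ache (n = 5), and the values it moved more are given with and without it below.

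In saline mice the members formed a different order in each region. Chrm1 was abundant in the NAc and PFC and scarce in the VTA. At 28 days its level was 35.8 ± 2.43 RPKM (SD, n = 6) in the NAc, 38.5 ± 2.26 (n = 6) in the PFC and 1.39 ± 0.422 (n = 5) in the VTA. At 1 day the corresponding levels were 25.6 ± 2.14, 28.7 ± 2.04 and 0.890 ± 0.105 (n = 6 each). The 1-day levels of the NAc were scaled otherwise than those of the VTA and PFC and were not tested across regions. The NAc and PFC did not differ beyond their spread (log2 difference 0.15, SE 0.12), while the VTA stood apart, with a log2 difference of -4.79 against the NAc and of 4.94 for the PFC against the VTA (SE 0.16 each).

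Chrm4, the Gi/o-coupled receptor of striatal projection neurons, ran from the NAc through the PFC to the VTA. Its saline levels at 28 days were 40.4 ± 6.18 RPKM in the NAc, 15.3 ± 4.44 in the PFC and 1.31 ± 0.131 in the VTA. Without saline library 4, where it reached 23.1, the PFC mean was 13.7 ± 2.44 (n = 5). Chrm4 was lower in the VTA than in the NAc by a log2 difference of -5.05 (SE 0.20) and lower in the PFC than in the NAc by -1.36 (SE 0.15), or -1.53 without that library.

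Chrm3 and Chrm5, both Gq/11-coupled, were highest in different regions. Chrm3 led in the PFC with 20.6 ± 3.59 RPKM at 28 days, followed by the VTA with 6.83 ± 2.09 and the NAc with 3.77 ± 0.730. At 1 day it had 25.9 ± 2.22, 7.72 ± 1.07 and 6.12 ± 1.72, and the VTA and NAc libraries overlapped. Chrm5 led in the VTA with 6.34 ± 2.37, against 1.01 ± 0.361 in the NAc and 0.179 ± 0.210 in the PFC. In the PFC the 6 saline libraries held Chrm5 at 0.0179 to 0.584 RPKM, and without library 4 the mean was 0.0979 ± 0.0770 (n = 5). At 1 day the Chrm5 order was the same, with 7.48 ± 2.68, 1.06 ± 0.516 and 0.125 ± 0.0529.

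Chrm2, the receptor best known as an autoreceptor on cholinergic terminals, had the smallest spread between regions among the 8 members, with no log2 difference beyond 1.48. It stood at 4.57 ± 1.42 RPKM in the VTA, 2.398 ± 0.243 in the PFC and 1.53 ± 0.252 in the NAc at 28 days. The log2 differences were 1.48 (SE 0.18) for the VTA against the NAc, 0.70 (SE 0.18) for the PFC against the NAc and -0.78 (SE 0.18) for the PFC against the VTA. The 1-day levels kept that order, at 6.66 ± 1.62, 3.87 ± 0.566 and 2.74 ± 0.652.

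Chat and Slc5a7, which make acetylcholine and recover its choline, were highest in the NAc. In saline mice Chat stood at 7.42 ± 1.42 RPKM in the NAc at 1 day and 9.11 ± 2.00 at 28 days. In the VTA it stood at 0.430 ± 0.265 and 0.319 ± 0.110. Slc5a7 followed with 9.83 ± 2.08 and 6.85 ± 1.39 in the NAc and 0.448 ± 0.395 and 0.264 ± 0.106 in the VTA. In the PFC the 6 saline libraries at 1 day had 0.0292 to 0.118 RPKM of Chat, which is 1 to 11 reads over all libraries of that table, and 0.221 to 0.470 of Slc5a7.

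The PFC values of these genes at 28 days were set by 1 library. Saline library 4 had 3.97 RPKM of Chat and 2.96 of Slc5a7, while the other 5 had 0.0843 to 0.140 and 0.132 to 0.310. Lhx8, Gbx1, Gbx2 and Ngfr, genes of forebrain cholinergic neurons, summed to 3.13 RPKM in it and to 0.533 to 0.888 in the other 5. Chat was therefore higher in the PFC than in the VTA with it (log2 difference 1.40, SE 0.88) and lower without it (-1.39, SE 0.28). Slc5a7 went from 1.47 (SE 0.70) to -0.20 (SE 0.31). Against the NAc, Chat went from -3.55 (SE 0.77) to -6.36 (SE 0.25), Slc5a7 from -3.31 (SE 0.64) to -5.00 (SE 0.30) and Chrm5 from -2.42 (SE 0.49) to -3.29 (SE 0.43).

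Ache had an order of its own. It was the most abundant member in the VTA, at 68.7 ± 11.8 RPKM in saline mice at 28 days, against 27.6 ± 2.21 in the NAc and 18.2 ± 1.48 in the PFC. The VTA stood above the NAc by a log2 difference of 1.21 (SE 0.09), while for Chat the difference was -4.94 (SE 0.92). At 1 day the Ache levels were 42.4 ± 3.83, 17.7 ± 3.72 and 10.3 ± 1.35.

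**Figure D1:**
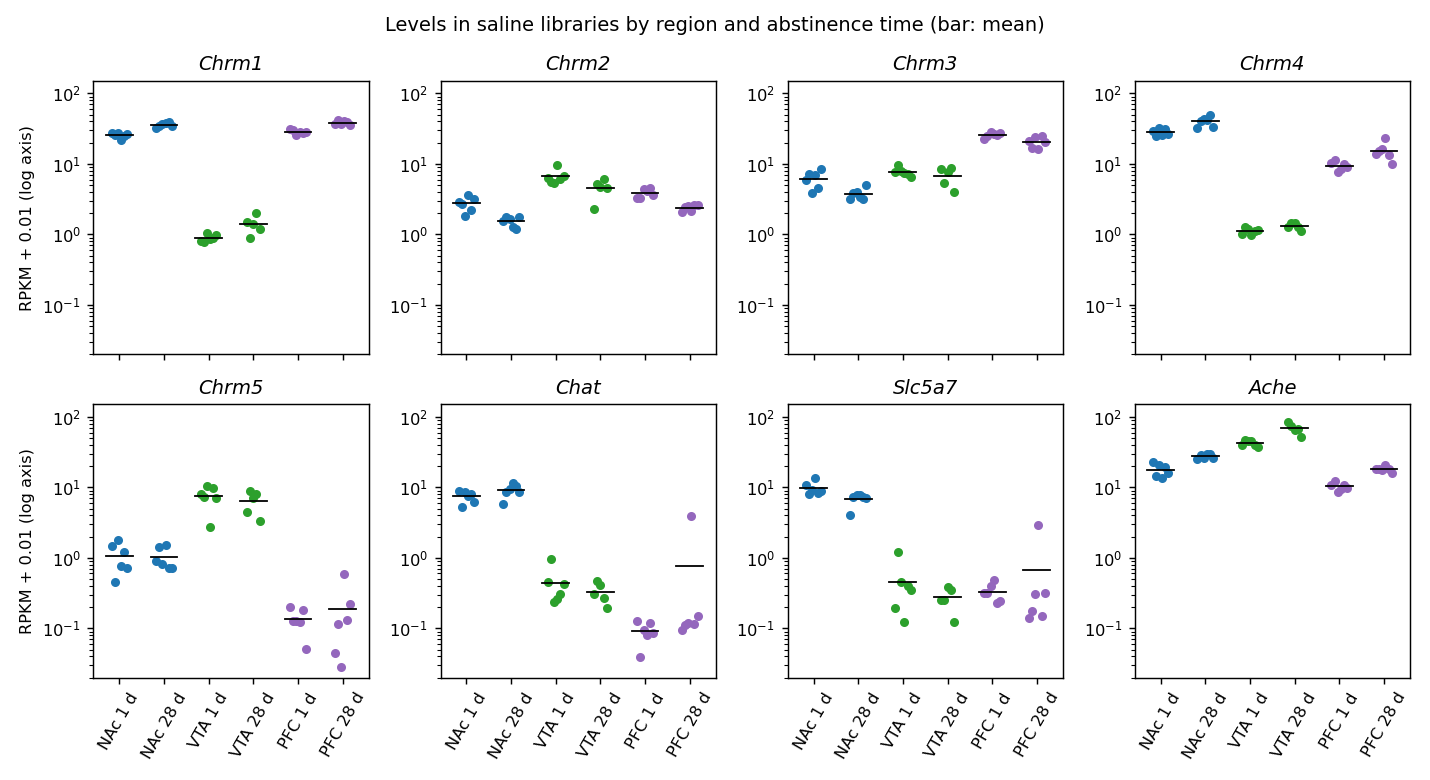
Level of each member in saline libraries, as RPKM + 0.01 on a log axis, by region and day of abstinence (points: libraries, bars: means of 5 or 6 libraries). Chrm1 and Chrm4 are low in the VTA, Chrm5 and Ache are highest there, Chat and Slc5a7 are highest in the NAc, and 1 PFC saline library at 28 days lies far above the others for Chat and Slc5a7.

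Over all genes tested on these saline libraries, 62.5% were called at an adjusted p under 0.05 (edgeR quasi-likelihood test, Benjamini-Hochberg) for the VTA against the NAc, 40.7% for the PFC against the NAc and 57.8% for the PFC against the VTA. Of the 8 members, 8, 7 and 6 were called. Chrm1 was the exception between PFC and NAc, and Chat and Slc5a7 between PFC and VTA. Without PFC saline library 4, Chat was also called between PFC and VTA (adjusted p = 0.000381 in edgeR), in the other direction. Slc5a7 was called there (adjusted p of 0.0455, 0.0497 and 0.0460 in edgeR) when PFC saline library 1, 2 or 5 was left out. In those runs it was higher in the PFC, with log2 differences of 1.69, 1.68 and 1.69. They kept saline library 4, without which the Slc5a7 difference was -0.20 and not called. In bulk tissue, fewer cells of a type and less RNA per cell cannot be told apart.

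The genes around the receptors were counted in the same way. Of all 17181 genes tested, 5609 were called higher and 5123 lower in the VTA than in the NAc. The numbers were 3550 and 3436 for the PFC against the NAc, and 4824 and 5115 for the PFC against the VTA. Some counts of the lists lie near these shares, and they are given as a description. Counted at an adjusted p under 0.05 in edgeR, 8 of 10 genes of choline and acetylcholine handling were higher and 1 lower in the VTA than in the NAc, with Slc10a4, a transporter-like protein of cholinergic and monoamine vesicles, at 2.64 on the log2 scale and butyrylcholinesterase (Bche) at 1.54. Of 12 tested genes of the Gq/11 arm, 2 were higher and 8 lower in the VTA. Kcnq5, a channel of the M-current that these receptors close, was at -3.46, the IP3 receptor Itpr1 at -3.07 and phospholipase Plcb1 at -2.15, while Plcb4 was higher at 2.41. Of 8 genes of the Gi/o arm 3 were higher and 2 lower, with the adenylyl cyclase Adcy5 at -3.17 and the potassium channel Kcnj6 at 2.69. Of 9 genes of receptor desensitization 1 was higher and 5 lower, with Rgs4 at -2.12. In the PFC against the NAc the counts of higher and lower genes were 1 and 4, 2 and 3, 4 and 1, and 4 and 2 in the same order of lists, and in the PFC against the VTA they were 1 and 9, 9 and 2, 4 and 1, and 6 and 1. The counts were the same without PFC saline library 4.

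The main question of the design was whether cocaine changed these levels at 1 or 28 days of abstinence. None of the members tested was called in any of the 6 tables, where 0.0126% of genes were called in the NAc at 1 day, 0% in the NAc at 28 days, 0.0665% in the VTA at 1 day, 0% in the VTA at 28 days, 0.00693% in the PFC at 1 day and 0% in the PFC at 28 days. The tests were edgeR's quasi-likelihood test on counts and, for the 2 tables of RPKM, limma. An unadjusted p under 0.05 was reached by 0 of 8 members in the NAc at 1 day, 1 of 8 at 28 days, 2 of 7 and 3 of 8 in the VTA, and 0 of 5 and 3 of 7 in the PFC. Over all genes tested the share with such a p was 4.01% (NAc, 1 day), 6.76% (NAc, 28 days), 15.7% (VTA, 1 day), 11.5% (VTA, 28 days), 3.78% (PFC, 1 day) and 5.66% (PFC, 28 days). Chat and Slc5a7 were among the 3 members of the PFC at 28 days, and their fold changes there rested on saline library 4, as given below. DESeq2 called none in the 4 count tables.

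**Figure D2:**
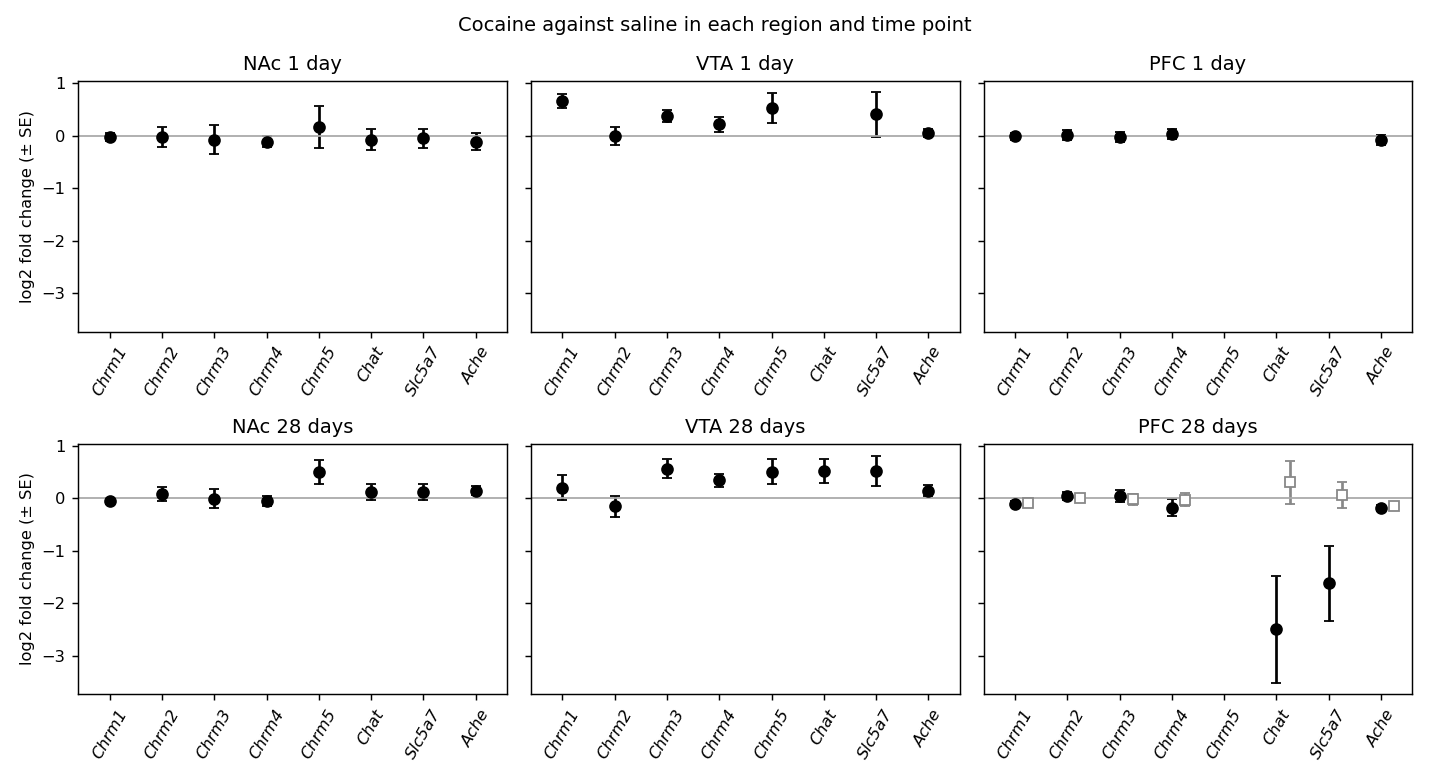
Log2 fold change of each member for cocaine against saline with its SE, in each region (columns) and at each day (rows). Members without a point did not pass the filter on low values, and open squares give the PFC at 28 days without saline library 4. NAc values lie near 0 apart from Chrm5, most VTA values lie above 0, and the low PFC values of Chat (-2.49) and Slc5a7 (-1.62) are at 0.30 and 0.06 without that library.

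In the VTA at 1 day the separation was clearest for Chrm1. It rested on 115 to 334 reads a library, and reads in the 329 bases shared with 7SK are uncertain, as given above. The 6 cocaine libraries ran from 1.08 to 1.84 RPKM with a median of 1.48, and the 6 saline libraries from 0.773 to 1.05 with a median of 0.867. Every cocaine library was above every saline library, a pattern that 1.3% of the genes tested in that table showed in this direction. The ratio of the means was 1.66 and the log2 fold change 0.66 (SE 0.14), with an adjusted p of 0.0766 in limma. Without cocaine library 6, the lowest of its group, the adjusted p was 0.0294 in limma and the log2 fold change 0.74. Leaving out the lowest library of the higher group widens the gap by construction, so this run adds no support. Over all genes, 65 of 14956 were called in it, against 10 of 15042 with all libraries. With the cortical sum as a covariate the adjusted p was 0.219 in limma. At 28 days the groups overlapped, with cocaine at 0.940 to 2.17 and saline at 1.47, 0.866, 1.38, 2.02 and 1.20, and the log2 fold change was 0.20 (SE 0.24).

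Chrm3 was higher in cocaine at both times in the VTA. At 1 day the cocaine libraries had 7.70 to 12.0 RPKM (median 10.0) and the saline libraries 6.55 to 9.69 (median 7.48). At 28 days cocaine had 8.79 to 12.3 (median 9.95), and the 5 saline libraries had 8.33, 5.37, 7.66, 8.84 and 3.93. The groups overlapped in both, with 3 of 6 and 5 of 6 cocaine libraries above every saline library. How many of all genes had such partial counts was not computed, here or for Chrm4 and Ache below. The log2 fold changes were 0.38 (SE 0.11, adjusted p = 0.162, limma) and 0.56 (SE 0.19, adjusted p = 0.394, edgeR), and the second was 0.43 without saline library 5.

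Chrm5, the receptor of dopamine neurons, was also higher on average but with wide spread. At 1 day cocaine libraries had 5.69 to 14.6 RPKM (median 10.7) and saline libraries 2.72 to 10.3 (median 7.58). The log2 fold change was 0.53 (SE 0.29), and 0.26 without saline library 4, which had the lowest level. At 28 days cocaine had 6.62 to 11.2 and saline 4.51, 8.79, 7.03, 8.10 and 3.27, for a log2 fold change of 0.51 (SE 0.24), or 0.35 without saline library 5. Across libraries its level and the midbrain dopamine neuron sum had a Pearson's r of 0.110 at 1 day (permutation p = 0.726, adjusted 0.812) with rho -0.112 (p = 0.734, adjusted 0.872), and of 0.343 at 28 days (permutation p = 0.310, adjusted 0.471) with rho 0.345 (p = 0.301, adjusted 0.469). Without the 2 farthest libraries r was 0.227 and 0.439, and with group means removed 0.633 and 0.326.

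Of the Gi/o-coupled receptors in the VTA, Chrm4 was at 1.38 to 1.92 RPKM in cocaine and at 1.28, 1.44, 1.42, 1.27 and 1.12 in saline at 28 days, with 5 of 6 cocaine libraries above every saline library and a log2 fold change of 0.34 (SE 0.13, adjusted p = 0.398, edgeR). At 1 day cocaine had 0.855 to 1.63 and saline 0.979 to 1.26, with 0.21 (SE 0.14). Chrm2 had log2 fold changes of -0.0029 (SE 0.17) and -0.15 (SE 0.20), with 4.69 to 9.52 RPKM in cocaine and 5.43 to 9.81 in saline at 1 day.

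Chat and Slc5a7 were scarce in the VTA and Ache was abundant. Chat at 28 days was at 0.370 to 0.536 RPKM in cocaine and at 0.297, 0.458, 0.402, 0.256 and 0.185 in saline, from 19 to 56 reads a library, and its log2 fold change was 0.51 (SE 0.23, adjusted p = 0.425, edgeR). Slc5a7 was at 0.233 to 0.468 in cocaine and 0.240, 0.243, 0.382, 0.344 and 0.111 in saline, with 0.52 (SE 0.28). At 1 day Chat, under the filter, had 0.0615 to 0.564 RPKM in cocaine and 0.226 to 0.941 in saline. Ache was 0.04 (SE 0.07) at 1 day and 0.15 (SE 0.11) at 28 days on the log2 scale.

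**Figure D3:**
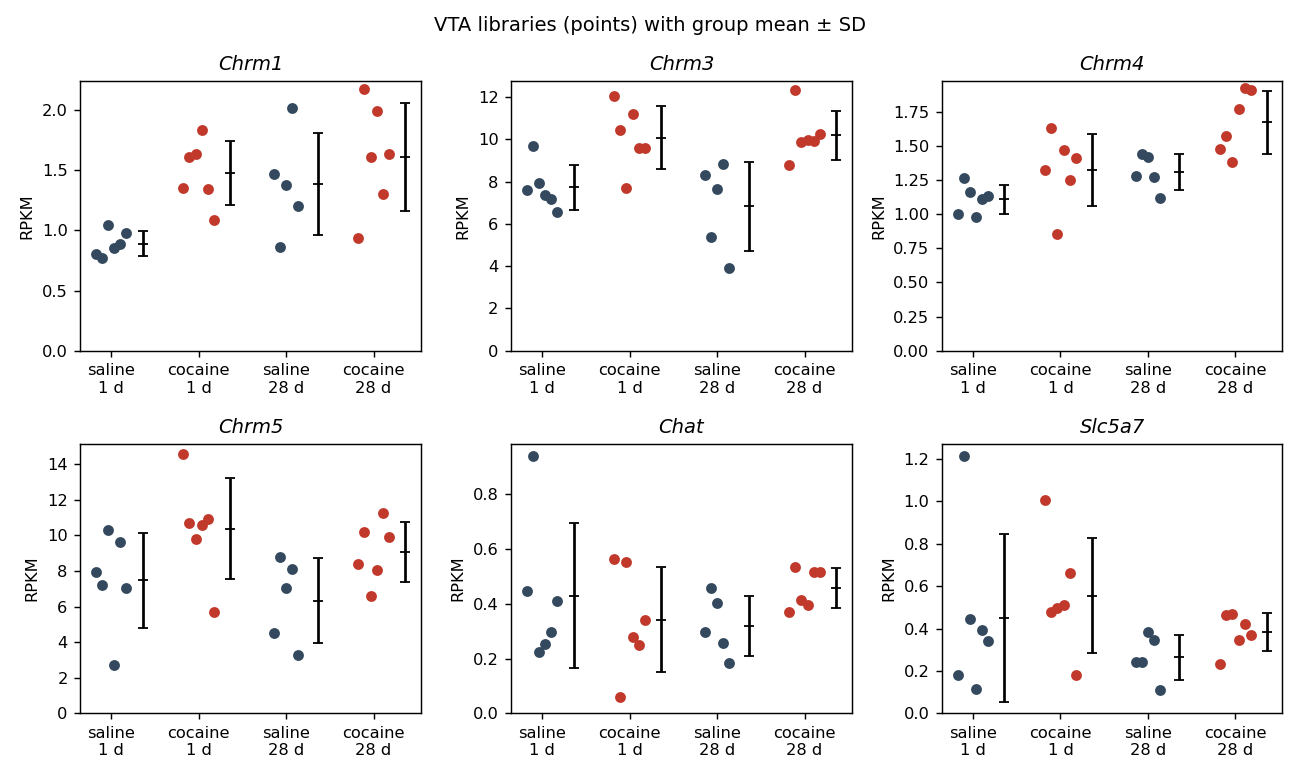
RPKM of 6 members in each VTA library (points) with the group mean and SD beside them, at 1 and 28 days. Chrm1 at 1 day is the panel in which all 6 cocaine libraries lie above all 6 saline libraries, and the other groups overlap.

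Across the VTA, 6 of the 7 members tested at 1 day and 7 of the 8 at 28 days had a log2 fold change above 0, with medians of 0.38 and 0.43. Over all genes tested, 58.9% and 43.1% were above 0, with medians of 0.03 and -0.03. Marker sums also stood at different levels, none past the adjusted threshold. At 1 day the cortical sum was 16.0 to 83.0 RPKM in cocaine and 9.50 to 37.8 in saline (9 of 9 genes higher), the dopamine neuron sum was 649.8 to 1531 and 1083 to 2472 (0 of 9 higher), and the microglia sum was 90.4 to 161.8 and 136.9 to 216.5 (0 of 7 higher). At 28 days the cortical sum was 13.8 to 30.3 in cocaine and 14.1 to 92.6 in saline, with 4 of 9 genes higher, and the microglia sum was 104.8 to 177.5 and 161.9 to 311.2, with 0 of 7 higher. The dopamine neuron sum overlapped at 28 days, at 823.4 to 2428 and 633.9 to 2638.

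The exact permutation p-values of these log2 sums in the VTA (2-sided, 924 divisions of the libraries at 1 day and 462 at 28 days) were 0.0584 and 0.0390 for the cortical list, 0.0173 and 0.693 for dopamine neurons, and 0.0173 and 0.0455 for microglia. None of the 54 comparisons of a list in a table had an adjusted p under 0.05, and 6 had an unadjusted one, or 4 when the mean of the log2 levels was used. Medium spiny neuron, cranial motor neuron, habenula and interpeduncular, oligodendrocyte and astrocyte sums had p between 0.119 and 0.998 in both VTA tables. Of forebrain cholinergic neuron genes, the sum of Lhx8, Gbx1, Gbx2 and Ngfr, chosen after the data were seen, was 1.54 to 2.93 RPKM in cocaine and 1.15 to 2.48 in saline in the VTA at 1 day, with 3 of 4 genes higher and Lhx8 under 0.1 in every library. Its log2 difference was 0.67 (exact permutation p = 0.0195, or 0.117 when adjusted over all 6 tables), and at 28 days it was -0.11 (exact permutation p = 0.690). With the cortical sum as a covariate the log2 fold change of Chrm1 at 1 day was 0.64 (SE 0.17, adjusted p = 0.219, limma), and that of Chrm3 was 0.55 at 1 day (SE 0.11) and 0.55 at 28 days (SE 0.23). That of Chrm2 at 28 days went from -0.15 to 0.30 (SE 0.16). Across the 11 libraries at 28 days Chrm2 and the cortical sum had an r of 0.757 (permutation p = 0.00603, adjusted 0.0280) with rho 0.718 (p = 0.0167, adjusted 0.0634), and Ache had -0.762 (permutation p = 0.00663, adjusted 0.0280) with rho -0.873 (p = 0.000810, adjusted 0.00769). Without the 2 farthest libraries r was 0.761 and -0.745. The part of dopamine neurons, microglia and forebrain cholinergic neuron genes in these values was not tested.

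In the NAc cocaine and saline overlapped for every member at both times. Chat was at 4.27 to 10.0 RPKM in cocaine and 5.30 to 8.94 in saline at 1 day, with medians of 7.17 and 7.73, and at 7.46 to 12.0 and 5.83 to 11.7 at 28 days, with medians of 10.7 and 9.09. Its log2 fold changes were -0.08 (SE 0.20) and 0.12 (SE 0.15). Slc5a7 was at -0.05 (SE 0.18) and 0.12 (SE 0.15), Ache at -0.12 (SE 0.16) and 0.14 (SE 0.08). Without cocaine library 5 at 1 day, which was high for Ache and Chrm5, Ache was at -0.28 (SE 0.13, adjusted p = 0.798, edgeR) and Chrm5 went from 0.16 (SE 0.40) to -0.28 (SE 0.34).

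The receptors of the NAc were as close. Chrm1 spread least, at 33.4 to 36.8 RPKM in cocaine and 32.7 to 39.0 in saline at 28 days, with log2 fold changes of -0.02 (SE 0.07) at 1 day and -0.05 (SE 0.05) at 28 days. Chrm4 was at -0.12 (SE 0.10) and -0.05 (SE 0.10), Chrm2 at -0.02 (SE 0.19) and 0.08 (SE 0.13), and Chrm3 at -0.08 (SE 0.27) and -0.01 (SE 0.18). Chrm5 at 28 days was the member with an unadjusted p under 0.05. Its cocaine libraries had 0.961 to 1.81 RPKM (median 1.53) and its saline libraries 0.709 to 1.53 (median 0.853), with a log2 fold change of 0.49 (SE 0.23, adjusted p = 0.736, edgeR). It rested on 37 to 131 reads a library.

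Chat and Ache in the NAc varied between libraries with the summed level of the cortical excitatory neuron genes, whose part in the spread was not tested. The cortical sum ran from 9.40 to 299.9 RPKM over the 12 libraries at 1 day and from 12.3 to 219.7 at 28 days and was wide in both treatments, at 9.40 to 299.9 in cocaine and 9.50 to 222.3 in saline at 1 day. The medium spiny neuron sum in saline at 1 day was 2650 RPKM at the lowest cortical sum (9.50) and 2134 at the highest (222.3). In cocaine it was 2119 at the lowest (9.40) and 1793 at the highest (299.9). Chat was lower where the cortical sum was higher. How many of all genes had an r of such size with the cortical sum was not computed, so the relation is not shown to be particular to the members. Across libraries Pearson's r was -0.841 (permutation p = 0.000900, adjusted 0.0105) and Spearman's rho -0.916 (p = 9.0e-05, adjusted 0.00171) at 1 day, and r was -0.841 (permutation p = 0.000620, adjusted 0.0105) and rho -0.846 (p = 0.000790, adjusted 0.00769) at 28 days. Without the 2 libraries farthest from the median sum, r was -0.902 and -0.833, and with group means removed -0.855 and -0.835.

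Ache and Slc5a7 followed with the same sign. For Ache r was -0.822 at 1 day (permutation p = 0.00138, adjusted 0.0105) with rho -0.762 (p = 0.00592, adjusted 0.0281), and -0.788 at 28 days (permutation p = 0.00254, adjusted 0.0138) with rho -0.769 (p = 0.00484, adjusted 0.0263). Without the 2 farthest libraries it was -0.579 and -0.712. For Slc5a7 r was -0.502 (permutation p = 0.0963, adjusted 0.183) at 1 day with rho -0.573 (p = 0.0564, adjusted 0.149) and -0.760 at 28 days (permutation p = 0.00194, adjusted 0.0123) with rho -0.839 (p = 0.00137, adjusted 0.0104). Without the 2 farthest it was -0.672 and -0.734.

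Among the receptors Chrm3 alone had a positive r over 0.5 at both times. It was 0.572 (permutation p = 0.0527, adjusted 0.154, rho 0.650 with p = 0.0257, adjusted 0.0878) at 1 day and 0.685 (permutation p = 0.0136, adjusted 0.0518, rho 0.643 with p = 0.0277, adjusted 0.0878) at 28 days, and 0.858 and 0.427 without the 2 farthest libraries. Chrm5 had -0.813 at 1 day (permutation p = 0.00119, adjusted 0.0105, rho -0.804 with p = 0.00251, adjusted 0.0159), or -0.698 without the 2 farthest, and -0.497 at 28 days (permutation p = 0.10, adjusted 0.183, rho -0.559 with p = 0.0620, adjusted 0.149), or -0.436. Chrm4 had -0.628 at 1 day (permutation p = 0.0279, adjusted 0.0965, rho -0.727 with p = 0.00985, adjusted 0.0416) and -0.507 at 28 days (permutation p = 0.0953, adjusted 0.183, rho -0.559 with p = 0.0627, adjusted 0.149), or -0.849 and -0.519 without the 2 farthest. For Chrm1 and Chrm2 the adjusted permutation p lay at 0.399 or above for r and at 0.380 or above for rho. They belong to 38 relations adjusted together, and the libraries are the same for each gene.

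**Figure D4:**
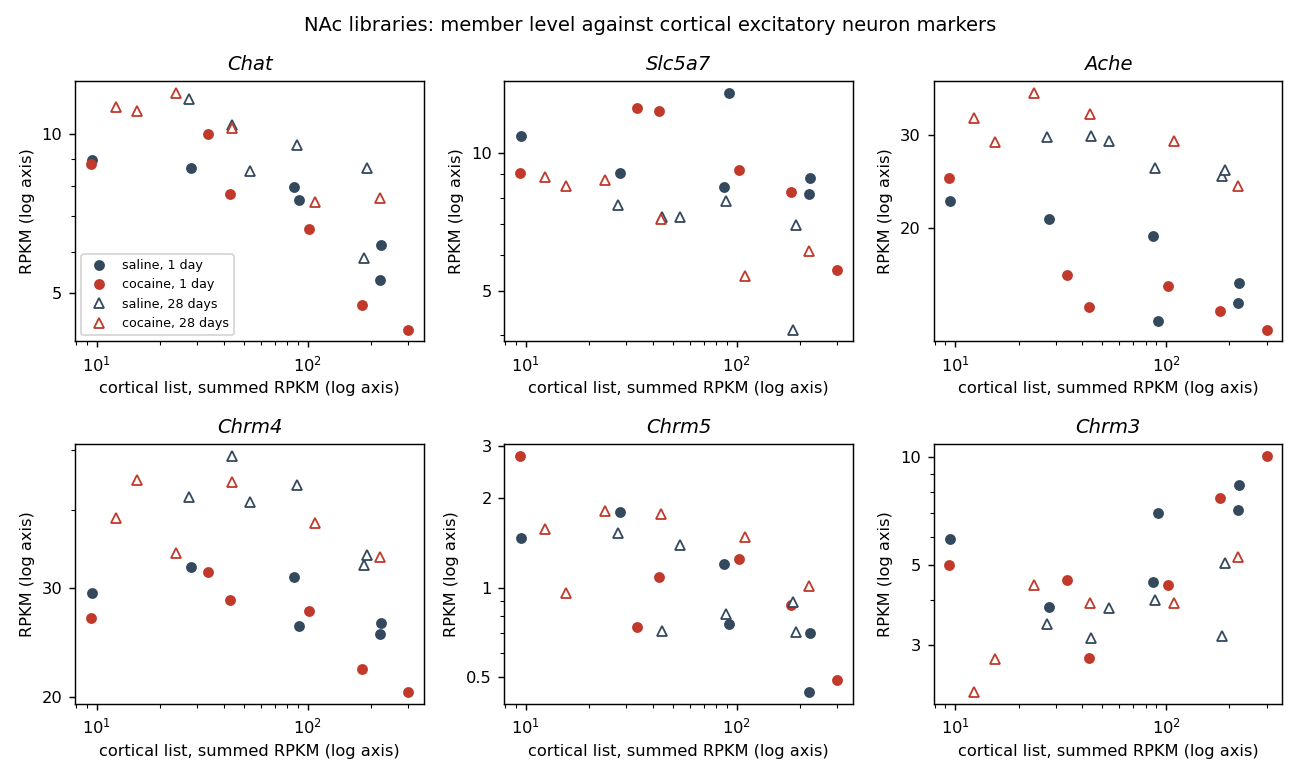
RPKM of 6 members in the 24 NAc libraries against the summed RPKM of 9 cortical excitatory neuron genes, both on log axes (filled circles: 1 day, open triangles: 28 days, red: cocaine, dark blue: saline). Chat, Ache and Slc5a7 fall with the cortical sum, which runs from 9.40 to 299.9, and Chrm3 rises.

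The genes most like Chat in the NAc were sought over its 12 libraries at 28 days after removing the mean of each treatment group. The 5 with the highest r among 15671 genes were Ebag9 (0.964), Tacr1 (0.963), Dpy19l3 (0.963), Epha6 (0.948) and Tmem181a (0.944), where the median of all genes was -0.154. At 1 day Tacr1, the substance P receptor, had 0.812, Dpy19l3 0.828 and Tmem181a 0.782, while Ebag9 had 0.161 and Epha6 0.0726. Slc5a7 had 0.918 and 0.734, and Ache 0.621 and 0.703. The sum of the 4 forebrain cholinergic neuron genes had an r with Chat of 0.884 at 1 day (permutation p = 0.000110, adjusted 0.000440, rho 0.888 with p = 0.000180, adjusted 0.000720), or 0.854 without the 2 farthest libraries. At 28 days it had 0.280 (permutation p = 0.376, adjusted 0.485, rho 0.210 with p = 0.514, adjusted 0.514), or -0.141 without them. For Slc5a7 r was 0.556 (permutation p = 0.0597, adjusted 0.119, rho 0.552 with p = 0.0661, adjusted 0.132) and 0.220 (permutation p = 0.485, adjusted 0.485, rho 0.231 with p = 0.471, adjusted 0.514), or 0.466 and -0.109 without the 2 farthest. These 4 relations were adjusted together.

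The same search was made in the VTA for Chat and Chrm1. For Chat the 5 were Prrg3, Mtap9, Dpysl5, Scn2a1 and Rnf165, with r of 0.939 to 0.923 over 11 libraries at 28 days and 0.152, -0.0568, -0.0784, -0.0402 and 0.371 over 12 at 1 day. For Chrm1 they were Sntg2, Nrp2, Efnb2, Cyp4f17 and Acadsb, with 0.970 to 0.953 and then 0.0456, 0.511, 0.430, -0.372 and 0.470. These are descriptions without a test.

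In the PFC the receptors stood close between treatments. At 1 day Chrm1, Chrm2, Chrm3 and Chrm4 had log2 fold changes of -0.02 (SE 0.07), 0.01 (SE 0.09), -0.03 (SE 0.09) and 0.03 (SE 0.10), and Ache was at -0.08 (SE 0.10). Chrm5 was at 0 to 0.160 RPKM in cocaine and 0.0411 to 0.190 in saline, from 0 to 9 reads, and was not tested. At 28 days Chrm1 was at -0.10 (SE 0.05), Chrm2 at 0.04 (SE 0.08) and Chrm3 at 0.05 (SE 0.11), or at -0.09, 0.01 and -0.02 without saline library 4.

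Ache in the PFC at 28 days had the smallest unadjusted p of the members there (edgeR, adjusted p = 0.842). Cocaine libraries had 14.5 to 17.2 RPKM (median 16.0) and saline libraries 16.1 to 20.6 (median 18.1), with 4 of 6 cocaine libraries below every saline library. The log2 fold change was -0.19 (SE 0.06), and -0.15 (SE 0.05) without saline library 4.

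Chat, Slc5a7 and Chrm4 in the same table changed with that library. With it Chat was at -2.49 (SE 1.02) and Slc5a7 at -1.62 (SE 0.71), with an adjusted p of 0.842 each in edgeR. Without it Chat was at 0.30 (SE 0.41), Slc5a7 at 0.06 (SE 0.25) and Chrm4 at -0.03 (SE 0.13), against -0.18 (SE 0.16) for Chrm4 with it. The cocaine libraries themselves had 0.0223 to 0.261 RPKM of Chat and 0.173 to 0.303 of Slc5a7.

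**Figure D5:**
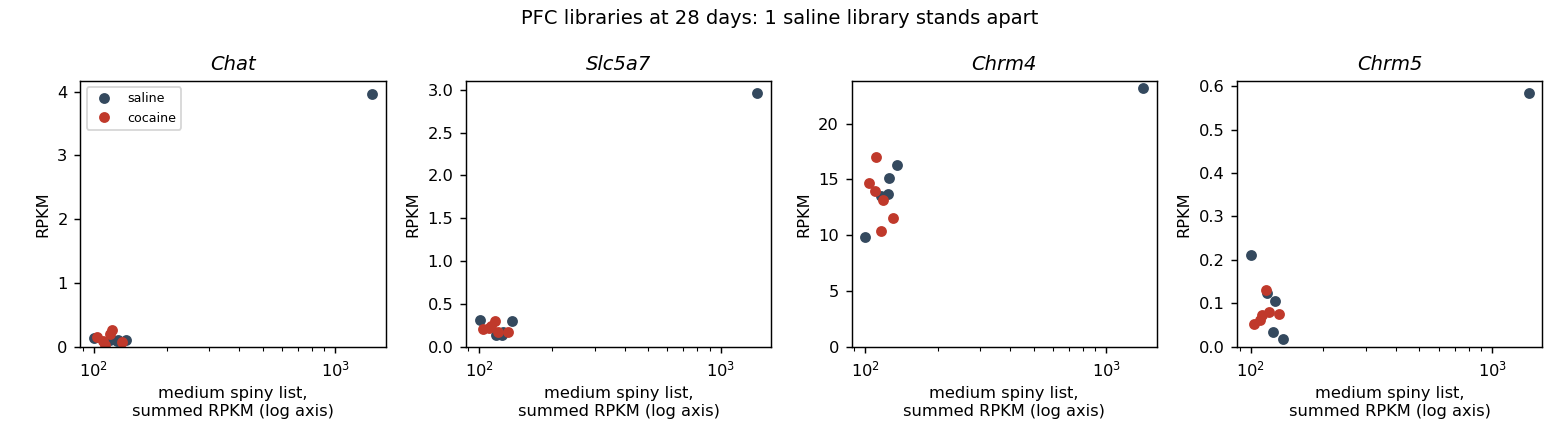
RPKM of Chat, Slc5a7, Chrm4 and Chrm5 in the 12 PFC libraries at 28 days against the summed RPKM of 9 medium spiny neuron genes (log axis). Saline library 4 lies at a sum of 1416 with 3.97 RPKM of Chat, and the other 11 libraries lie between 100.4 and 135.9.

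Whether the cocaine effect changed between 1 and 28 days was tested as an interaction. It was called for none of 8 members in the NAc, where 0.0181% of genes were called (edgeR), none of 6 in the VTA (0%, limma) and none of 5 in the PFC (0.0137%, limma), and no member had an unadjusted p under 0.05. In the NAc DESeq2 called none. For Chrm1 in the VTA the effect at 28 days was below that at 1 day by a log2 difference of -0.46 (SE 0.27, adjusted p = 0.462, limma), and for Chrm3 above it by 0.24 (SE 0.23). For Chat in the NAc the difference was 0.21 (SE 0.27).

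The genes of the 4 pathway lists held no call for cocaine against saline in any table or for the change with time. The gene with the smallest p in the VTA at 1 day was Itpr1, the IP3 receptor downstream of Gq/11. It had 17.7 to 24.9 RPKM in cocaine and 13.7 to 18.9 in saline, which overlapped in 1 library of each group, with a log2 fold change of 0.47 (SE 0.09, adjusted p = 0.0766, limma). In the VTA at 28 days it was Colq, the collagen tail that anchors acetylcholinesterase, with 0.0938 to 0.555 RPKM in cocaine and 0.626, 1.10, 0.571, 1.69 and 3.61 in saline. Its log2 fold change was -2.12 (SE 0.52, adjusted p = 0.389, edgeR).

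In the other tables the gene with the smallest p was Chka, choline kinase, in the NAc at 1 day (0.25, SE 0.08), Gnai1 in the NAc at 28 days (0.20, SE 0.06), Slc44a2 in the PFC at 1 day (-0.13, SE 0.06) and Slc10a4 in the PFC at 28 days (-2.83, SE 0.94). Slc10a4 was at 2.89 RPKM in saline library 4 of the PFC and at 0.0625 to 0.213 in the other 5 saline libraries, and without that library its log2 fold change was -0.62 (SE 0.36).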

How the data were processed

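RNA was measured by sequencing in punches of the NAc, VTA and PFC, and libraries were grouped by their labels into region, treatment and day. Per the labels the authors aligned reads with STAR 2.4.1d, and their processing notes also name DESeq2 and edgeR. They deposited 6 tables of 37681 genes on mm9. The deposited values of 4 tables (NAc at both days, VTA and PFC at 28 days) are read counts, and those of the VTA and PFC at 1 day are RPKM normalized by the authors. 30 columns that match no sample were not used, nor were the authors' columns of log2 fold changes and p-values.

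Counts were scaled by TMM and tested with edgeR 4.0.16 (quasi-likelihood, filterByExpr with a minimum count of 10), in one fit of the saline 28-day libraries for regions and one of 24 libraries for the change with time in the NAc. RPKM were tested with limma 3.58.1 on log2(RPKM + 0.1) for genes with a mean of at least 0.5, a scale that understates changes of low genes. Changes with time in the VTA and PFC were fitted likewise. P-values were adjusted by Benjamini-Hochberg over all genes, with a cutoff of 0.05. Printed levels of count tables are TMM-scaled CPM divided by the gene length behind the deposited RPKM. Those of the VTA and PFC at 1 day are the RPKM as deposited, so regions at 1 day stand on unlike scales. Levels of the 1-day and 28-day tables were scaled separately and were not tested against each other outside the interaction fits. The RPKM of the 1-day tables gave whole reads (tolerance 0.001) for all 23806 and 23353 genes with reads. The methods were tested on simulated data.

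Members, marker lists and pathway lists were chosen with earlier results of these data known, and the 38 relations with marker lists after the data were seen. The forebrain cholinergic neuron list is given as the sum of 4 of its genes, added after the data were seen, because 1 gene is not reported here. The whole list stays among the 54 comparisons and 38 relations adjusted together. All members were described. Pathway genes were counted per list and named where called or, where none was, as the gene with the smallest p. For Chat in both regions and Chrm1 in the VTA the 5 genes most alike were named. Alternatives were DESeq2 1.42.0, its size factors in edgeR, all genes above 0 in place of the filter, 1 as pseudocount, edgeR on recovered reads, a replicate block, the cortical sum as covariate, another summary of marker lists, and leaving out each library.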

Additional observations from a re-analysis of the deposited data

Results flagged for a closer look

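Dixon's test on the level of each member in each group set 1 library apart in 12 of 96 tests, where chance alone gives about 1 in 20. The value given is the gap to the nearest library over the range of the group. In the PFC at 28 days saline library 4 was set apart for Chat (0.986, 3.97 RPKM against 0.0843 to 0.140), Slc5a7 (0.937, 2.96 against 0.132 to 0.310) and Chrm5 (0.661, 0.584 against 0.0179 to 0.210). Cocaine library 1 of that table was set apart for Chrm5 (0.654, 0.131 against 0.0518 to 0.0792).

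In the VTA at 1 day saline library 2 was high for Chat (0.688, 0.941 against 0.226 to 0.448) and Slc5a7 (0.698, 1.21 against 0.114 to 0.446), and saline library 4 for Chrm2 (0.688, 9.81 against 5.43 to 6.80). At 28 days cocaine library 3 was high for Chrm2 (0.772, 5.39 against 3.67 to 4.06).

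In the NAc at 1 day cocaine library 5 was high for Chrm5 (0.67, 2.79 against 0.489 to 1.25) and Ache (0.716, 24.9 against 12.9 to 16.3), and saline library 4 was low for Chrm1 (0.628, 21.6 against 25.2 to 27.4). At 28 days saline library 1 was low for Slc5a7 (0.758, 4.11 against 6.96 to 7.87).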

How the results depend on the processing

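No member was called for cocaine against saline under any alternative run, except Chrm1 in the VTA at 1 day. There the count of members called went from 0 to 1 with edgeR on recovered reads (adjusted p = 0.0480), and leaving out each library gave 0 to 1, with 1 without cocaine replicate 6 (adjusted p = 0.0294). Its adjusted p ran up to 0.219 with the cortical covariate, and with a pseudocount of 1 its log2 fold change was 0.38. With the replicate number as a block 0 members were called in the 3 one-day tables (Chrm1 in the VTA at 0.0879). Same-numbered libraries there correlated from -0.529 to 0.675 in the NAc, -0.273 to 0.478 in the VTA and -0.201 to 0.0645 in the PFC, so the number was not taken as a pairing. No paired analysis was possible at 28 days because the column numbers there could not be matched to the labels. Over all genes, calls were 21 with DESeq2 against 2 in the NAc at 1 day, 14 against 0 at 28 days, 74 against 0 in the VTA and 2 against 0 in the PFC at 28 days, and 10 against 3 for the change with time in the NAc. In the VTA at 1 day they were 10, against 55 on recovered reads, 60 with the block, 7 without a filter and 0 with the covariate, and 0 to 65 without 1 library. The cause of these differences was not tested. Of 1306 other comparisons of a log2 fold change with its alternative, 1296 moved by less than the SD between libraries and 10 by more. Of directions called in the main fit 0 reversed. A direction not called there was left out of that count, as for Chat between PFC and VTA (1.40, and -1.39 without PFC saline library 4). Changes of call were not part of these counts, and those of Chrm1, Chat and Slc5a7 are given above. DESeq2 gave no p for Slc5a7 between regions, which leaves 7, 6 and 6 members called. Members with few reads, Chat and Slc5a7 in the VTA and PFC and Chrm5 in the PFC, are limited by depth.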
